A study of Mus musculus with 10 samples.

Results

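The methyltransferases that place methyl groups on lysine 20 of histone H4 (H4K20) and the HP1 proteins of heterochromatin were followed as 6 genes, taken by symbol from the 22878 gene symbols listed in each library. They were Setd8, Suv420h1 and Suv420h2, which encode the methyltransferases, and Cbx5, Cbx1 and Cbx3, which encode HP1α, HP1β and HP1γ. All 6 were found, and all 6 passed the filter on low values used for the tests (a mean RPKM of at least 1 over the libraries). RPKM is the number of reads scaled to the length of the transcript and the size of the library.

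SETD8 adds the first methyl group to H4K20, a mark that comes and goes with the cell cycle, and SUV420H1 and SUV420H2 build on it to give the dimethylated and trimethylated forms. HP1 proteins bind methylated lysine 9 of histone H3 through a chromodomain and bring other proteins, SUV420H2 among them, to silent chromatin such as that around centromeres. SMYD5, the target of the knockdown, is a further SET and MYND domain methyltransferase that the study examined for its part in H4K20 trimethylation. The comparisons below asked whether the other enzymes of this mark and the HP1 genes were expressed differently when Smyd5 was depleted, and how they varied as ES cells differentiated.

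Poly(A) RNA was sequenced from the mouse ES cell line R1 and from embryoid bodies (EBs), the 3D aggregates that ES cells form in low attachment dishes without LIF. Cells carried a lentiviral short hairpin RNA directed at luciferase or at Smyd5, and the first of these (shLuc) served as control for the second (shSmyd5). Each hairpin was sampled as ES cells, which per the labels were kept on gelatin with a GSK3 inhibitor to clear feeder cells, and as EBs of 4 ages (24 h, then day 6, day 10 or day 14). The paper's methods give that culture for ChIP and otherwise describe R1 cells on irradiated feeder cells with LIF. Which applied to these ES cell libraries was not settled. Each of the 10 conditions has 1 library, so a fold at a single stage has no replicate check, and its interval covers counting error only. Which of the Smyd5 hairpins was used, and whether the cells were a pool or a clone, was not given in the sources used here.

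The shLuc ES cell library was the shallowest, with 3895537 reads in genes, and that of shLuc at day 6 the deepest, with 43377815. Summed over 6 ES cell markers (Pou5f1, Nanog, Zfp42, Esrrb, Sox2 and Tdgf1), the RPKM in shLuc went from 1991 in ES cells to 73.6 at day 14, and from 1155 to 28.2 in the shSmyd5 libraries. The 6 fibroblast markers, which feeder cells share with mesenchyme, summed to an RPKM of 4.49 and 3.55 in the shLuc and shSmyd5 ES cell libraries, with Col3a1, Postn and Dcn listed at 0 in both, and to 2944 and 1659 at day 14. In bulk RNA, fewer cells of a type and less RNA per cell cannot be told apart. At ES cells and 24 h the fold of a gene moved with the GC content of its transcript: across genes the rank correlation of the 2 was -0.68 in ES cells, 0.58 at 24 h, -0.024 in the day 6 pair, then -0.39 (day 10) and 0.32 (day 14); genes share libraries, so this is a description. Folds are therefore also given after a smooth trend on GC content and transcript length was taken out, together with its level.

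The knockdown itself was seen at every stage. Smyd5 was at an RPKM of 29.7, 10.7, 15.4, 24.95 and 13.1 in the shLuc libraries of ES cells, 24 h, day 6, day 10 and day 14, and at 4.51, 0.891, 0.492, 9.14 and 6.88 in the shSmyd5 libraries. The 2 sets do not overlap. On the log2 scale of RPKM plus 0.1 the difference went from -4.71 at day 6 to -0.92 at day 14, which is 26.1-fold and 1.89-fold lower.

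A pair of members kept 1 direction at all 5 stages, Setd8 higher and Cbx5 lower in shSmyd5. A promoter of each is shown for that reason, as the 250 bases before a RefSeq start of the gene on GRCm38.p6. There are 3 listed promoters for Setd8 and 2 for Cbx5, and the others were not read. Capitals mark each CCAAT (either strand, so ATTGG as well) and each CACGTG, the E-box, which does not overlap it.
Setd8 promoter, chr5:124439680-124439929, plus strand: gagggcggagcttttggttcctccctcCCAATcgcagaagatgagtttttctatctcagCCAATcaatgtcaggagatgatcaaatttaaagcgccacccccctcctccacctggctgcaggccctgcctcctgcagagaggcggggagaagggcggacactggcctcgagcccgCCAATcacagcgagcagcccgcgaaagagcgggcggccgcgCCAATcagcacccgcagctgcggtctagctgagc
Cbx5 promoter, chr15:103239853-103240102, minus strand: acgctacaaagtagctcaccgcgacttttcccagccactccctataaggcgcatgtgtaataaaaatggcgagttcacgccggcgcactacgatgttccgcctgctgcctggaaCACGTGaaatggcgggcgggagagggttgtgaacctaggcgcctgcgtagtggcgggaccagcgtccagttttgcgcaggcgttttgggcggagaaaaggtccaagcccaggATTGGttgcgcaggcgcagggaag
The Setd8 window held 4 copies of CCAAT, a number that 0.840% of the 32851 listed promoters reached or passed over the same length, and 33.8% held at least 1. The Cbx5 window held 1 ATTGG and 1 CACGTG, which 6.02% of promoters contain. The GC box (GGGCGG) was counted too, with 3 copies in the Setd8 window and 2 in that of Cbx5, and 32.7% of promoters held it. As several motifs were counted in the windows of all members, a rare count in any of them is a description. RefSeq lists these genes as Kmt5a and Cbx5, and Suv420h1 and Suv420h2 as Kmt5b and Kmt5c. The Suv420h2 window held 2 CCAAT copies. Those of Suv420h1, Cbx1 and Cbx3 held neither CCAAT nor CACGTG, which says only that these letters are not in them. Suv420h1 and Cbx3 each have 2 listed promoters, of which 1 was read.

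Setd8 lies on the plus strand of chromosome 5 at chr5:124889939-124912317 (mm9), and 1 transcript of it was listed. Its RPKM was 39.4, 35.3, 61.9, 35.4 and 40.6 in the shLuc libraries from ES cells to day 14, and 49.1, 59.4, 76.1, 49.9 and 50.6 in the shSmyd5 libraries. The shSmyd5 library was the higher one at each stage, and at both hairpins day 6 was the peak. The log2 fold was 0.32 in ES cells (95% interval of the counts 0.20 to 0.44), 0.75 at 24 h (0.68 to 0.83), and among later EBs 0.30 (0.26 to 0.33) at day 6, 0.49 (0.41 to 0.58) at day 10 and 0.32 (0.26 to 0.38) at day 14. None of these intervals reached 0, yet the 1.5-fold mark was passed at 24 h alone. Under TMM scaling, the library scaling of the tests, it was passed at day 6 (0.63) and day 10 (0.62) but not at 24 h (0.57). With the GC and length trend removed the folds were 0.39, 0.57, 0.59, 0.51 and 0.28, again above 0 at 5 of 5 stages.

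Being higher in shSmyd5 at all 5 stages was not rare, since 4.8% of the 12277 genes tested were, and 9.41% of 6904 genes once the trend was removed. The mean log2 fold of Setd8 over the stages was 0.44 ± 0.19 (SD, n = 5). A two-sided exact permutation test of the signs gave p = 0.0625, the smallest p that 5 pairs can give. Any gene whose 5 folds share a direction gets this p, so it adds nothing to that shared direction. For the members without a shared direction the same test gave p from 0.4375 (Suv420h1) to 0.6875 (Cbx1). In the edgeR quasi-likelihood test with the stage as a block the shared log2 fold was 0.50 ± 0.17 (SE), with an unadjusted p of 0.0151 and an adjusted p of 0.31, so the difference did not pass. Over its alternatives the adjusted p lay between 0.147 and 0.809 with stage in the fit.

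Cbx5, which encodes HP1α, lies on the minus strand at chr15:103021975-103070247 (mm9). Its RPKM was 29.5, 38.3, 43.2, 78.6 and 37.3 in the shLuc libraries of ES cells, 24 h, day 6, day 10 and day 14, and 22.5, 24.9, 23.8, 48.8 and 26.8 in the shSmyd5 libraries. At each stage the shSmyd5 library was the lower one, and both hairpins peaked at day 10. The log2 fold was -0.39 in ES cells (-0.47 to -0.31), -0.62 at 24 h (-0.67 to -0.57), and among later EBs -0.86 (-0.89 to -0.83) at day 6, -0.69 (-0.73 to -0.65) at day 10 and -0.48 (-0.52 to -0.44) at day 14. The gene passed 1.5-fold at 24 h, day 6 and day 10. Under TMM scaling Cbx5 passed at 24 h alone (-0.80), with -0.53 at day 6 and -0.56 at day 10. It has 3 listed transcripts, and their folds differed by no more than 0.01 at any stage. After the trend was removed the folds were -0.83, -0.17, -0.38, -0.72 and -0.21, so the direction held at 5 of 5 stages while the size at ES cells and 24 h changed places.

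For Cbx5 the mean log2 fold over the stages was -0.61 ± 0.18 (SD, n = 5). The exact permutation test again gave p = 0.0625, its smallest value, as it must where all 5 folds share a direction. The share of genes lower in shSmyd5 at all 5 stages was 6.19%, and 6.91% with the trend removed. In edgeR the shared log2 fold was -0.54 ± 0.18 (SE), unadjusted p 0.0122 and adjusted p 0.29, which does not pass. DESeq2 gave the adjusted p nearest to the threshold, 0.0528, and the other alternatives with stage in the fit gave 0.177 to 0.749.

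**Figure D1:**
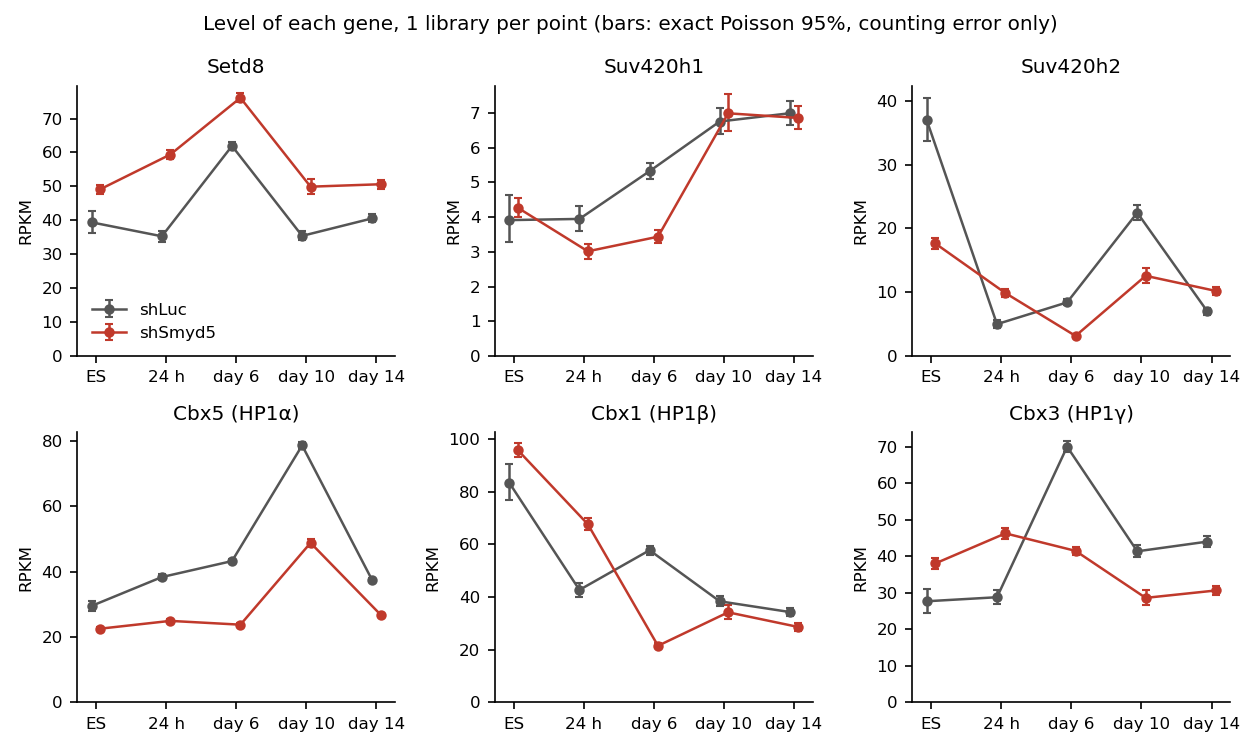
RPKM of the 6 genes (vertical axes, each from 0) at the 5 stages (horizontal axes) in shLuc (grey) and shSmyd5 (red), with 1 library per point and exact Poisson 95% intervals of the counts. The shSmyd5 line lies above shLuc at all 5 stages for Setd8 and below it at all 5 for Cbx5, and the lines cross for the other 4 genes.

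Across all genes the edgeR test of the shared knockdown effect called none of 12277 (0%), Smyd5 included (log2 fold -2.63 ± 0.51 (SE), adjusted p 0.11), while 1425 genes had an unadjusted p under 0.05 and DESeq2 called 333. Against that background 0 of the 6 members passed in edgeR, DESeq2 or limma. The remaining 4 members had shared log2 folds of -0.11 ± 0.20 (Suv420h1), -0.30 ± 0.32 (Suv420h2), -0.13 ± 0.24 (Cbx1) and -0.074 ± 0.23 (Cbx3), each within 1 SE of 0, with adjusted p from 0.74 to 0.93.

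Suv420h1, one of the pair of enzymes for the higher methylation states, lies at chr19:3767421-3818303 (mm9, plus strand) and had the lowest median RPKM of the 6 (4.80), although Suv420h2 lay below it in single libraries. Its RPKM was 3.91, 3.95, 5.33, 6.76 and 6.996 in shLuc and 4.27, 3.02, 3.44, 6.99 and 6.86 in shSmyd5, in stage order. For the transcript used, the 4 libraries of day 10 and day 14 lay above the other 6. For the shorter transcripts of 3016, 3290 and 3318 bases they did not. That of 3318 bases was at 3.39 (shLuc) and 3.26 (shSmyd5) at day 10 against 5.37 and 4.05 at day 6. Only 134 reads stood behind the shLuc ES cell value, whose Poisson interval was 3.28 to 4.64. The log2 fold was 0.12 in ES cells (-0.13 to 0.40), -0.38 at 24 h and -0.62, 0.049 and -0.028 at day 6, day 10 and day 14, and the intervals at ES cells, day 10 and day 14 span 0. Its 1.53-fold lower value at day 6 passed the mark, at a stage where 53.3% of genes did, and was -0.19 on the log2 scale with the trend removed. With a pseudocount of 1 it was -0.51, short of the mark. The 7 listed transcripts ran from 3016 to 6131 bases. Their log2 folds spread from -1.82 to -0.38 at 24 h and from -0.74 to -0.40 at day 6. The value at 24 h and the call at day 6 thus depend on the transcript.

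Suv420h2, whose product is enriched at pericentric heterochromatin, lies at chr7:4691717-4699116 (mm9, plus strand) and varied most of the 6 genes, with an 11.8-fold span between the highest and lowest library. Its RPKM was 36.9, 4.99, 8.404, 22.5 and 6.97 in shLuc and 17.6, 9.87, 3.14, 12.6 and 10.2 in shSmyd5. Both hairpins were highest in ES cells and second highest at day 10. The log2 fold was -1.06 in ES cells (-1.22 to -0.91), 0.97 at 24 h (0.77 to 1.21), and among later EBs -1.39 (-1.58 to -1.26) at day 6, -0.83 (-0.99 to -0.68) at day 10 and 0.54 (0.40 to 0.70) at day 14. Thus shSmyd5 was lower at 3 stages and higher at 2, by more than the counting error each time. The 2 listed transcripts gave the same folds to within 0.02.

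At 59.98% GC, Suv420h2 has the most GC-rich transcript of the 6. Genes of 55 to 60% GC, the bin at whose upper edge it lies, had a median log2 fold of -0.63 in ES cells, 0.74 at 24 h and -0.41, -0.30 and 0.22 at day 6, day 10 and day 14, a series with the same signs as the folds of Suv420h2 at each stage. With the trend removed its folds were -0.14, 0.059, -0.9999, -0.33 and 0.30. Only day 6 then stayed beyond 1.5-fold.

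**Figure D2:**
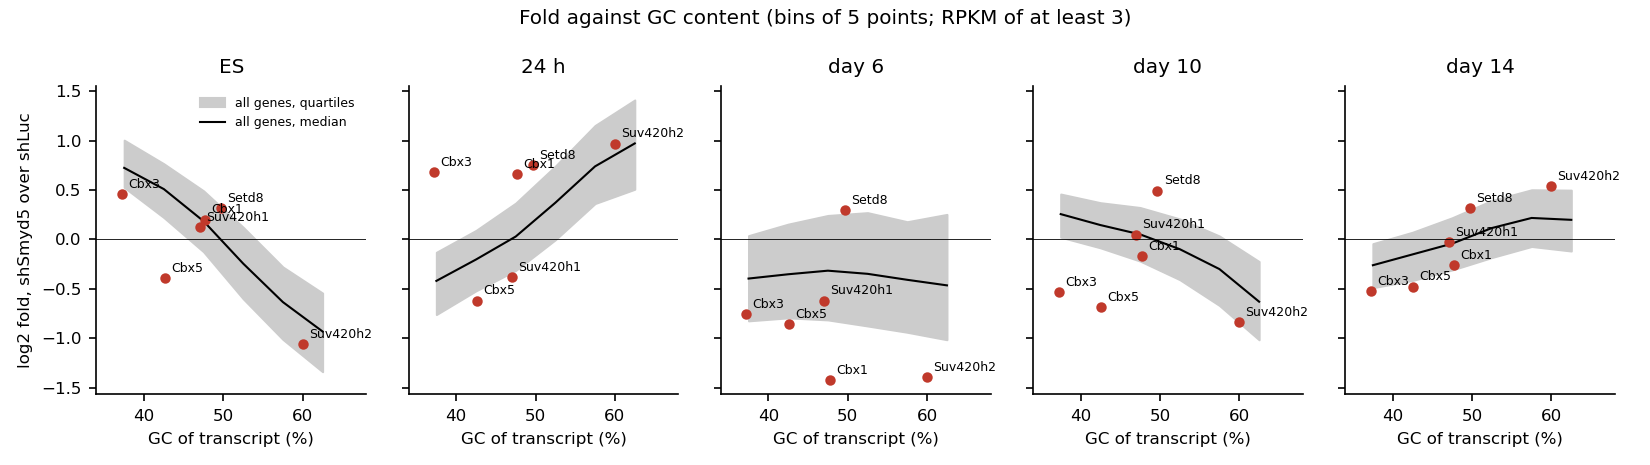
Log2 fold of shSmyd5 over shLuc (vertical axis) against the GC content of the transcript (horizontal axis, percent), 1 panel per stage, with the 6 genes as red points and the median and quartiles of genes that reached an RPKM of 3, in bins of 5 points of GC. The median of all genes slopes down in ES cells, where Suv420h2 lies at -1.06, and up at 24 h, where it lies at 0.97.

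Cbx1, which encodes HP1β, lies at chr11:96650441-96669954 (mm9, plus strand). Its RPKM was 83.4, 42.7, 57.8, 38.4 and 34.3 in shLuc and 95.8, 67.6, 21.5, 34.2 and 28.6 in shSmyd5. The 2 ES cell libraries were the highest of the 10. The log2 fold was 0.20 in ES cells (0.077 to 0.33), 0.66 at 24 h (0.56 to 0.76), and among later EBs -1.42 (-1.51 to -1.35) at day 6, -0.17 (-0.30 to -0.035) at day 10 and -0.26 (-0.36 to -0.16) at day 14. Its 2.68-fold lower value at day 6 was the largest single fold among the 30 values of the 6 genes, and of the genes that reached an RPKM of 3 at that stage, 7.73% had a lower fold. With the trend removed the day 6 fold was -1.47 and that of ES cells -0.17, on the other side of 0.

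Cbx3, which encodes HP1γ, lies at chr6:51420359-51433703 (mm9, plus strand). The whole of its transcript is matched at 95% identity or more by 7 other places in the mm9 genome, and how RNA-Seq reads with several matches were counted was not given, so its values are uncertain. Its RPKM was 27.7, 28.8, 70.1, 41.4 and 44.1 in shLuc and 38.1, 46.3, 41.5, 28.6 and 30.7 in shSmyd5. The shLuc library of day 6 stood above the other 9. The log2 fold was 0.46 in ES cells (0.28 to 0.64), 0.68 at 24 h (0.58 to 0.79), and among later EBs -0.75 (-0.81 to -0.70) at day 6, -0.53 (-0.65 to -0.41) at day 10 and -0.52 (-0.60 to -0.44) at day 14. At 37.2% GC it is the least GC-rich of the 6, and with the trend removed the fold was -0.47 in ES cells, 1.08 at 24 h and -0.56, -0.84 and -0.15 in the later EBs.

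**Figure D3:**
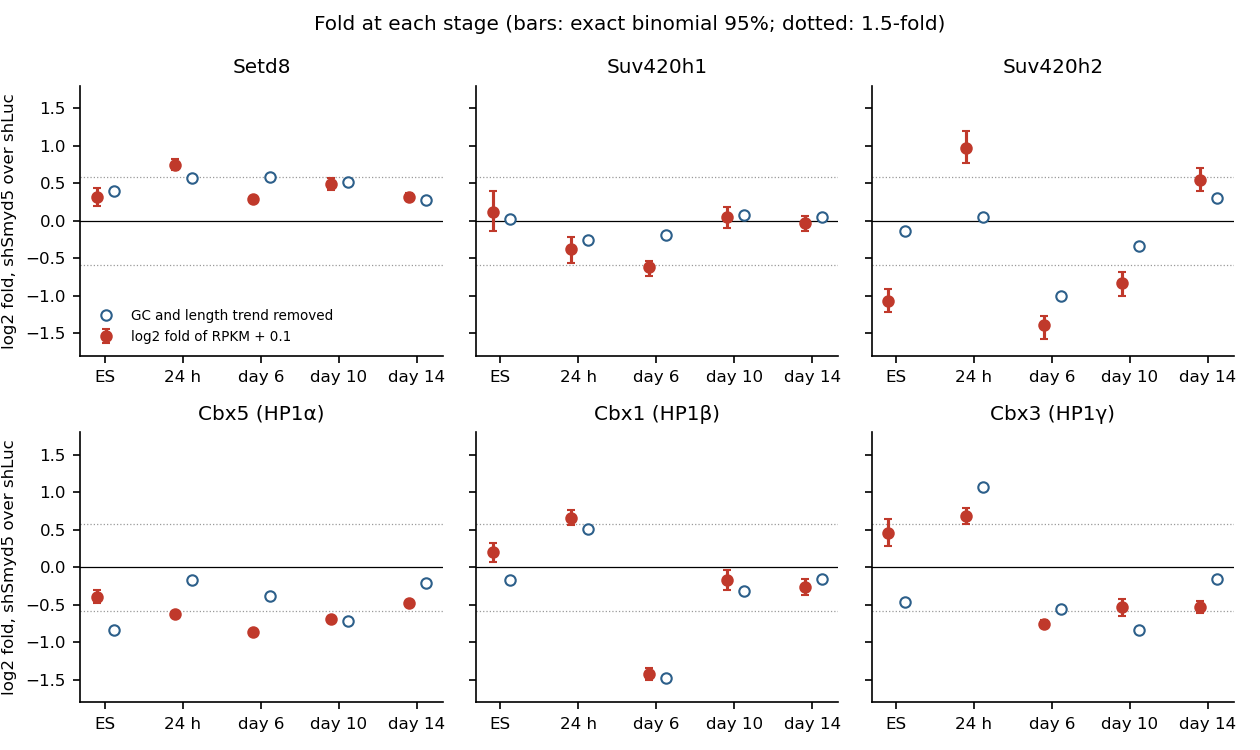
Log2 fold of shSmyd5 over shLuc (vertical axis) at each stage (horizontal axis) for the 6 genes: filled points are folds of RPKM plus 0.1 with exact binomial 95% intervals of the counts, open points are the folds with the GC and length trend removed, and dotted lines mark 1.5-fold. Setd8 stays above 0 and Cbx5 below 0 in both versions, while Cbx3 in ES cells moves from 0.46 to -0.47.

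Counted by stage, 1 of the 6 genes was at least 1.5-fold higher or lower in ES cells (Suv420h2), where 42.8% of genes were. At 24 h it was 5 of 6, every member but Suv420h1, against 40.1% of genes. At day 6 it was also 5 of 6, with Setd8 as the exception, and all 5 were lower in shSmyd5; 53.3% of genes passed in either direction and 38.1% were lower. These counts depend on the scaling: the median log2 fold of all genes was 0.14 at 24 h and -0.27 at day 6, and with TMM scaling 2 of 6 passed at 24 h (Suv420h2 and Cbx5) and 3 at day 6, where Suv420h2 (-1.08) and Cbx1 (-1.09) were lower and Setd8 (0.63) was higher. At day 10 the members past the mark were Suv420h2 and Cbx5, where 26.5% of genes passed. With TMM scaling they were Suv420h2 (lower) and Setd8 (higher), and with the trend removed Cbx3 and Cbx5 (both lower). At day 14 there were 0 of 6, where 22.2% of genes passed. That makes 13 of the 30 values, and 7 of 30 with the trend removed. Over all genes, 3990, 3349, 5043, 2801 and 2322 passed from ES cells to day 14 in the main analysis. With TMM scaling 4122, 3242, 4449, 2807 and 2350 passed, and with the trend removed 1732, 2148, 4032, 2163 and 1894.

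Whether the knockdown effect itself differed between late EBs (day 6, day 10 and day 14) and early cells (ES cells and 24 h) was tested as an interaction in edgeR. It called none of 12277 genes (0%), with 644 at an unadjusted p under 0.05 and 71 calls by DESeq2, which held none of the members. Cbx3 had the largest member difference, a log2 fold in late EBs less that in early cells of -0.996 ± 0.36 (SE, unadjusted p 0.0221, adjusted p 0.83). For Cbx1 it was -0.87 ± 0.43 (unadjusted p 0.0709, adjusted p 0.98). Suv420h2 (-0.35 ± 0.67), Suv420h1 (0.11 ± 0.43), Setd8 (0.014 ± 0.37) and Cbx5 (0.0075 ± 0.39) lay within 1 SE of 0.

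The stages differed for 4 of the 6 genes in the edgeR test of the 4 stage terms, with the hairpin as covariate: Cbx1 (adjusted p 0.0091), Setd8 (0.018), Suv420h2 (0.019) and Cbx5 (0.043). Cbx3 (0.071) and Suv420h1 (0.37) did not pass, but Cbx3 did in DESeq2 (adjusted p 0.032) and without 24 h (0.046). Since 65.3% of the genes tested differed among the stages, 4 of 6 is close to the background. In this test the 2 hairpins of a stage stand in for replicates. Without ES cells, Suv420h2 (adjusted p 0.19) and Cbx5 (0.10) no longer passed, and without day 10 neither did Cbx5 (0.32) or Setd8 (0.10). Removing day 6 ended the call of Setd8 (0.11), and removing day 14 that of Cbx5 (0.085). With GC and length offsets Suv420h2 did not pass (0.13), nor did Cbx5 without the filter on low values (0.099) or Setd8 in limma (0.18).

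Cbx1 was lower in late EBs than in early cells by -1.26 ± 0.24 on the log2 scale (SE, adjusted p 0.0013), and it passed under every alternative run, at -1.43 to -0.99. Ordered by the mean of the 2 libraries, its RPKM was 89.6 in ES cells, 55.2 at 24 h and 39.6, 36.3 and 31.5 in the later EBs, in order of age. The ES cell pair lay clear of the 24 h pair, and each later pair overlapped its neighbour. Across genes 53.8% were called in this contrast, 25.1% of all genes as lower.

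Suv420h2 was also lower in late EBs, by -0.85 ± 0.31 (SE, adjusted p 0.037), but this rested on ES cells: without them it was -0.13 (adjusted p 0.81). The call was also lost without day 6 (-0.56, adjusted p 0.17) and without day 14 (-0.84, adjusted p 0.065), and in limma on log2 RPKM (-0.57, adjusted p 0.19) or at a mean RPKM of at least 3 (-0.78, adjusted p 0.053). Its stage means ran from 27.3 in ES cells through 17.5 at day 10, 8.59 at day 14 and 7.43 at 24 h to 5.77 at day 6, and of these neighbours the pairs of day 10 and day 14 did not overlap.

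The other 4 genes did not pass this contrast in edgeR. Suv420h1 was at 0.39 ± 0.21 (adjusted p 0.14), Cbx5 at 0.24 ± 0.18 (0.29), Setd8 at -0.067 ± 0.18 (0.77) and Cbx3 at -0.020 ± 0.23 (0.95). Suv420h1 passed in limma (0.63, adjusted p 0.047) and changed sign with GC and length offsets (-0.10). Cbx5 passed as higher in limma (0.49, adjusted p 0.039) and as lower with those offsets (-0.48, adjusted p 0.020), so its direction depends on the method. By mean RPKM, Cbx5 stood highest at day 10 (63.7) and Setd8 at day 6 (69.0), and in both the top pair lay clear of the next, while the remaining pairs overlapped their neighbours. For the transcript used, Suv420h1 was at 6.93 at day 14 and 6.88 at day 10, clear of 4.38 at day 6, an order that its shorter transcripts did not share. The stage pairs of Cbx3, from 55.8 at day 6 to 32.9 in ES cells, overlapped throughout the order.

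**Figure D4:**
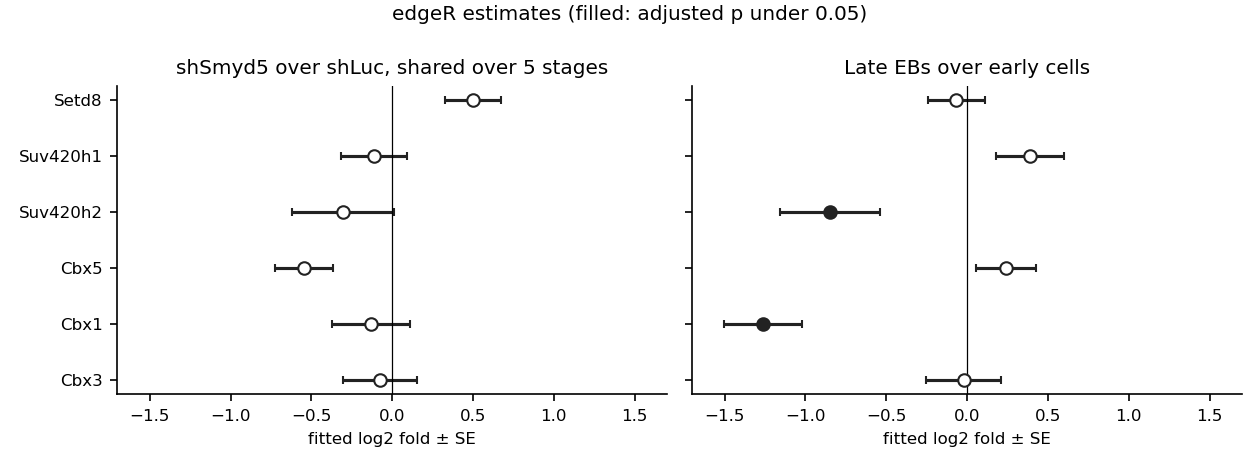
Fitted log2 folds (horizontal axes, bars are SE) of the 6 genes in edgeR, for shSmyd5 over shLuc shared over the stages (left) and for late EBs over early cells (right), filled where the adjusted p is under 0.05. No member is filled on the left, and Suv420h2 and Cbx1 are filled on the right, at -0.85 and -1.26.

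Because RPKM is scaled to length, the HP1 genes can be compared as shares of their summed RPKM. These shares do not depend on library size but carry the uncertainty of Cbx3, and no GC or length trend was removed from them. The transcripts have 47.7% (Cbx1), 37.2% (Cbx3) and 42.6% GC (Cbx5). Weighted by reads, mean GC was 51.4% in the shLuc ES cell library and 47.0% in that of 24 h. How far this moved the shares was not tested. In shLuc, Cbx1 made up 59.3% of the 3 genes in ES cells and 38.9%, 33.8%, 24.2% and 29.7% in EBs from 24 h to day 14. The share of Cbx5 over the same stages was 21.0%, 34.9%, 25.3%, 49.6% and 32.2%. By RPKM, the leading HP1 transcript of the control cells was thus Cbx1 in ES cells and at 24 h, Cbx3 at day 6 (41.0%) and day 14 (38.1%), and Cbx5 at day 10. In shSmyd5 the leading transcript was the same at each stage, with 61.3% Cbx1 in ES cells, 48.7% Cbx1 at 24 h, 47.8% Cbx3 at day 6, 43.7% Cbx5 at day 10 and 35.6% Cbx3 at day 14. The Cbx5 share was 16.9 points smaller in shSmyd5 at 24 h (17.9%), and elsewhere the difference ran from -6.58 points in ES cells to 2.12 points at day 6. The summed RPKM of the 3 genes was 171 in shLuc and 86.8 in shSmyd5 at day 6, and 141 and 156 in ES cells.

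**Figure D5:**
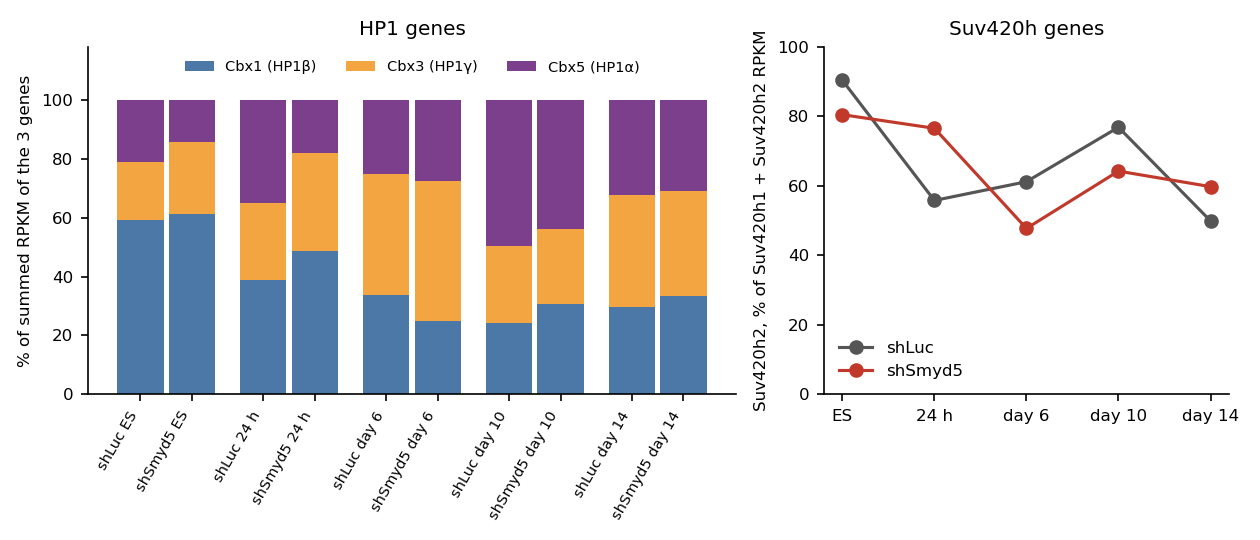
Left, the percent of the summed RPKM of Cbx1, Cbx3 and Cbx5 that each gene made up in the 10 libraries (stacked bars, in stage order with shLuc before shSmyd5). Right, Suv420h2 as a percent of Suv420h1 plus Suv420h2 by stage; Cbx1 leads in ES cells, Cbx5 at day 10, and Suv420h2 is at 90.4% in shLuc ES cells.

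Of the 2 Suv420h genes, Suv420h2 supplied 90.4%, 55.8%, 61.2%, 76.9% and 49.9% of the joint RPKM in shLuc from ES cells to day 14, and 80.5%, 76.6%, 47.7%, 64.3% and 59.8% in shSmyd5. Suv420h2 was thus the more abundant of the pair in ES cells at both hairpins. The hairpins differed by up to 20.8 points (24 h), in either direction, and these shares carry the GC trend described above.

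The genes whose log2 RPKM followed each member most closely over the 10 libraries were found among genes whose mean RPKM reached 3, as a description that shares libraries, depth and base composition. Setd8 was nearest to Thap6 (Pearson r = 0.93), Kif23 (0.93), which encodes a kinesin of cytokinesis, and 4930583H14Rik (0.90). Cbx5 was nearest to Birc6 (0.90), Fgfr1 (0.89), a receptor for fibroblast growth factors, and Cd247 (0.88). For Cbx1 the list was Pa2g4 (0.996), Stag3 (0.99), a cohesin subunit, and Prmt5 (0.98), an arginine methyltransferase. Suv420h2 went with Zfp668 (0.99), Chaf1a (0.99), the large subunit of the chromatin assembly factor CAF-1, and Ercc2 (0.99), whose transcripts have 56.6 to 59.1% GC against 59.98% for Suv420h2. Suv420h1 went with Rps6ka3 (0.98), Gdpd1 (0.98) and Erlin1 (0.98), and Cbx3 with Anp32a (0.95), Zfand1 (0.89) and Vps36 (0.89). Between pairs of members r ran from -0.51 (Setd8 and Cbx5) to 0.63 (Suv420h2 and Cbx1).

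Genes that work with the members were read from lists, with no test of a list. Of 8 readers and erasers of H4K20 methylation, 7 passed the filter and 0 were called for the shared knockdown effect; their median log2 fold was -0.13, against -0.0075 for all genes tested. The highest was 0.15 (Ncapd3, a condensin II subunit) and the lowest -0.25 (Trp53bp1, which reads H4K20 dimethylation at DNA breaks). In the late against early contrast Trp53bp1 rose (0.59) and Orc1 (-1.32), Lrwd1 (-1.24) and Ncapd3 (-0.99) fell. These are 4 of the 7 tested, near the 53.8% called among all genes.

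The 7 genes of SETD8 turnover, the ubiquitin ligases and PCNA that mark the protein for destruction, had 0 shared calls and a median of -0.23, from -0.37 (Cul4a) to 0.45 (Cul4b). Pcna (-1.49) and Fzr1 (-1.03) fell and Cul4a (1.04) rose in late EBs, 3 of 7 against 53.8% of all genes. The RB family, which binds the SUV420H enzymes, had 0 of 3 shared calls with a median of -0.27, from -0.33 (Rbl1) to -0.042 (Rb1), and Rb1 rose in late EBs (1.19).

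Among 14 H3K9 methyltransferases and HP1 partners 0 passed the shared test, with a median of -0.18, from -0.39 (Trim28, the KAP1 corepressor) to 0.059 (Pogz). At day 6, 12 of the 14 were at least 1.5-fold lower in shSmyd5, against 38.1% of all genes, and their median log2 fold was -0.89 against -0.35. Other lists shared this: 6 of 7 H4K20 readers and erasers (median -0.84) and 4 of 7 SETD8 turnover genes (-0.83) were lower by that mark. For cell cycle genes it was 5 of 12 (-0.54) and for the RB family 1 of 3 (-0.24). The list counts were made without TMM scaling and with the GC and length trend left in. The HP1 genes were lower by that mark for 3 of 3 at this stage, and for 1 of 3 (Cbx1) with TMM scaling or with the trend removed. In ES cells 4 of the 14 passed, all lower, where 42.8% of all genes passed, and at 24 h 5, of which 4 were higher, against 40.1%. The same 4 genes were lower in ES cells and higher at 24 h, the stages whose folds moved most with GC content. The part of GC content in this was not tested. In late EBs 7 of the 14 passed, near the 53.8% of all genes, 2 as higher and 5 as lower, with Suv39h1 (1.41) and Trim28 (-2.20) at the ends.

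Of 12 cell cycle genes 0 passed the shared test (median -0.031, from -0.81 for Mcm2 to 0.42 for Ccne2), and 7 fell in late EBs, with 0 higher, where 53.8% of all genes were called and 25.1% were lower. Their summed RPKM was 880.6 in shLuc and 693 in shSmyd5 at day 6, and 535 and 474 at day 14.

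Cell type markers also moved between the hairpins at day 6, the stage with the most members at least 1.5-fold lower. Endoderm markers (Afp, Ttr, Gata4, Gata6 and Sox17) summed to 67.2 (shLuc) and 462 (shSmyd5) RPKM, with 5 of 5 at least 1.5-fold higher. The ES cell markers summed to 667 and 312, with 5 of 6 at least 1.5-fold lower, and the neural markers Pax6 and Tubb3 to 12.9 and 0.873. At this stage 53.3% of all genes passed 1.5-fold in either direction and 38.1% were lower. The marker counts were made without TMM scaling. Over all 10 libraries the streak pair T and Mixl1 summed to at most 20.7, and the cardiac pair Myh6 and Tnnt2 to at most 23.2. The part of these differences in the folds of the 6 genes was not tested. In the shared test 0 of the 6 ES cell, 5 endoderm, 6 fibroblast, 2 streak, 2 cardiac and 2 neural markers passed.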

How the data were processed

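RNA-Seq of poly(A) RNA gave 10 libraries, 1 per condition, grouped by the sample titles. Per the labels, the authors used CASAVA and Bowtie2 and the mm9 build; their versions and the counter were not given in the sources used here. For ChIP-Seq the study kept the best-scoring alignment of a read with several matches, and for RNA-Seq the treatment of such reads was not given. The deposited files list for each of 29257 RefSeq transcripts the read count and the RPKM that the authors computed from it, and 100% of values over 200 reads lay within 1% of the RPKM that count, length and library size give. Libraries were made from double-stranded cDNA, so strand is unknown.

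For each symbol the transcript with the most reads on average was taken. A fold is the difference of log2(RPKM + 0.1), shSmyd5 minus shLuc, with exact binomial 95% intervals, and levels have exact Poisson 95% intervals. A gene was counted at 1.5-fold if either library reached an RPKM of 3. Tests used the edgeR quasi-likelihood method with TMM scaling on the 12277 genes whose mean RPKM reached 1, Benjamini-Hochberg adjustment over all of them and a threshold of 0.05. As no source says that libraries came from separate cultures, p-values measure the spread between these libraries. Member reads ran from 134 to 24554 per library, and intervals cover counting error only. The members and lists were chosen with earlier results of these data known. Named genes are the 6 members, Smyd5, for each member the 3 nearest patterns, and in each list the genes called for the shared effect or, with none, the highest and lowest; members of lists called in the late contrast were named after their values were seen. Alternatives changed the scaling, filter, test, block, pseudocount, transcript, GC and length trend and stages included. 1 of the gene lists is not reported here. The tests were also run on simulated counts. These held planted changes but no other stage differences and no GC trend, so that run does not cover these features of the data. Promoters are from RefSeq (GRCm38.p6), where 6 of 6 genes matched, and copies were sought with blastn at 95% identity over at least 100 bases. Tests ran in R 4.3.3 (DESeq2 1.42.0, edgeR 4.0.16, limma 3.58.1) and the rest in Python 3.11.15 (scipy 1.17.1, pandas 2.3.3, numpy 2.4.6, matplotlib 3.10.9).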

Additional observations from a re-analysis of the deposited data

Results flagged for a closer look

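The genes Suv420h2, Cbx1 and Cbx3 were at least 1.5-fold higher in shSmyd5 at 1 stage and at least 1.5-fold lower at another. With TMM scaling Suv420h2 alone passed in both directions. With the GC and length trend removed Cbx3 alone did, at 1.08 at 24 h and -0.84 at day 10, and Suv420h2 passed at day 6 alone. The values below are from the main analysis. The difference between the single stages was not tested, as each rests on 1 pair of libraries. Suv420h2 was at a log2 fold of 0.97 at 24 h but at -1.06 in ES cells, -1.39 at day 6 and -0.83 at day 10. Cbx1 was at 0.66 at 24 h and -1.42 at day 6. Cbx3 was at 0.68 at 24 h and -0.75 at day 6. Among the 5 stage folds of each member no single stage stood apart by Dixon's criterion.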

How the results depend on the processing

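The labels give no replicate numbers, so the only pairing was by stage, which was a block in the test of the shared knockdown effect. That test called 0 genes, but 163 without a filter on low values and 333 by DESeq2, and 0 to 6 when 1 stage was left out, the 6 without ES cells. The test of early against late knockdown effects called 0 genes, 5 without the filter, 71 by DESeq2 and 0 to 1 with a stage left out. No member was called in either test under any of these settings. For members, 2 to 5 (main 4) differed among the stages with 1 stage left out, and 1 to 2 (main 2) in late EBs minus early cells, with 1 (Cbx1) at a mean RPKM of at least 3. With the GC and length trend removed 1732 genes passed 1.5-fold in ES cells and 2148 at 24 h (main 3990 and 3349), and 7 member values in place of 13; at an RPKM of at least 10, 2529, 1755, 2875, 1530 and 1213 genes passed from ES cells to day 14 (main 3990, 3349, 5043, 2801 and 2322).

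The values that changed sign were log2 folds not called in the main test. For the shared effect, leaving out 1 stage gave -0.20 to 0.012 (Suv420h1), -0.28 to 0.11 (Cbx1) and -0.23 to 0.020 (Cbx3), and Cbx1 was 0.021 without the stage block. For late EBs minus early cells the ranges were -0.40 to 0.18 (Setd8), -0.34 to 0.25 (Cbx3) and -0.099 to 0.59 (Cbx5). There Setd8 was 0.0023 and Cbx3 0.0497 at a mean RPKM of at least 3, and in limma they were 0.18 and 0.25. With GC and length offsets Suv420h1 was -0.10, Cbx3 0.076 and Cbx5 -0.48. For early against late knockdown effects the ranges were -0.31 to 0.50 (Suv420h1), -1.24 to 0.51 (Suv420h2), -0.072 to 0.11 (Setd8) and -0.26 to 0.26 (Cbx5). In limma Suv420h1 was -0.071, Setd8 -0.16 and Cbx5 -0.17, without the filter Setd8 was -0.028 and Cbx5 -0.035, with offsets Setd8 was -0.030, and at a mean RPKM of at least 3 Cbx5 was -0.0036. The cause was not tested. Member counts by stage also depended on the scaling, against 1 in ES cells, 5 at 24 h and 5 at day 6 in the main analysis: with TMM scaling they were 2, 2 and 3, relative to the median of all genes 1, 3 and 3, and with the trend removed 1, 1 and 3, while day 6 had 3 at an RPKM of at least 10. Over all genes these 3 stages had 4122, 3242 and 4449 with TMM scaling and 3965, 3223 and 4494 relative to the median. With the trend removed they had 1732, 2148 and 4032. Other pseudocounts, the longest transcript and an RPKM of at least 1 left no count of genes or members over 1.5 times away and no called fold with another sign.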
